A study of Mus musculus with 10 samples.

Results

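The interferon regulatory factors (IRFs) are transcription factors that switch on interferon genes and the genes that respond to interferon. They were followed here as 7 listed genes, Irf1, Irf2, Irf3, Irf5, Irf7, Irf8 and Irf9, in RNA sequencing of brain endothelial cells (BECs). The members were the rows whose Ensembl identifier carried one of these symbols in the GENCODE M21 annotation, and 7 of the 7 were found among 14106 genes. All of the 7 had therefore passed the authors' filter on low counts. Irf4, which is no member, is given for comparison.

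IRFs bind DNA through a shared domain that recognises repeats of the letters GAAA, which make up the interferon-stimulated response element (ISRE). Viral or self nucleic acid sensed in a cell leads to phosphorylation of IRF3 and IRF7, which then drive type I interferon genes. Interferon that reaches a cell acts through the receptor chains IFNAR1 and IFNAR2, and the signal is carried to the ISRE by a complex named ISGF3 that holds STAT2 and IRF9. IRF1 is an activator induced by interferon gamma, IRF2 competes with it for the same sites, and IRF5 and IRF8 are best known from macrophages, microglia and other cells of the immune system.

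The 10 libraries came from cortical BECs of female mice, 1 year old, on a C3H/BL6 background. Of these, 5 were from APP/PS1 mice (APP/PS1Swe/PSEN1DE9), which carry transgenes for mutant amyloid precursor protein and presenilin and deposit amyloid in the brain, and 5 were from age-matched Control mice, whose genotype label was WT. The cells were enriched with CD31 microbeads after enzymatic dissociation and removal of myelin, and neither the labels nor the methods state whether a library was made from 1 mouse or from a pool. P values therefore measure the spread between these libraries.

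The values were log2 CPM, a log2 scale of counts relative to library size with a small added count, after the authors' batch correction. Converted back, a library held between 22371766 and 126686149 adjusted counts, and both libraries of replicate 1 were far below the rest, whose lowest total was 68813558. Adjusted counts are no longer reads, so no counting error was derived from them. The correction had set the mean of each same-numbered pair almost equal, with an SD over the 5 pairs between 0.00127 and 0.0121 log2 units for the 7 members. A Control library thus mirrors the APP/PS1 library of its pair, and each gene offers at most 5 independent differences and not 10 independent values. By the labels, replicates 4 and 5 of both groups share a batch, so the independence of pairs 4 and 5 is not shown. All 18 of 18 endothelial markers were among the genes, at means between 8.42 and 12.8 log2 CPM (highest for Flt1, a receptor for vascular endothelial growth factor). The summed level of 9 mural cell markers was lower in APP/PS1 in 5 of 5 pairs, with log2 differences from −1.72 to −0.01. It is carried by Rgs5, with the next marker at 5.90 log2 CPM. All 9 markers were lower in the mean of the pairs, with a list median of −0.77, but 2 of the 9 were lower in every pair. In pair 5, where the sum differed by −0.01, Rgs5 was higher by 0.01 and the median of the 9 markers was 0.03. The summed level of 8 oligodendrocyte markers differed by −3.11, 1.87, −2.21, −2.33 and −2.57 in pairs 1 to 5, so it was higher in replicate 2 alone. That of 9 leukocyte markers was lower in 5 of 5 pairs (−0.85 to −0.13), but it is carried by Lcp1 at 4.23 log2 CPM, with the next marker at 0.43, and Lcp1 was the 1 marker of the 9 that was lower in every pair. The sum of 7 astrocyte markers was higher in 2 of 5 pairs and is carried by Gja1, with a log2 difference of 0.27, while the other 6 were lower and the list had a median of −0.86. The sum of 3 neuron markers, of 8 listed, was lower in 5 of 5 pairs. It is carried by Gad1 at 2.27 log2 CPM, with the next marker at −0.54. Gad1 itself was higher in pairs 4 and 5, by 0.49 and 0.15, and 1 of the 3 markers was lower in every pair. The part of these shifts in the results on the IRFs was not tested.

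The start regions of the 7 genes are shown first, because binding sites for the IRFs and for STAT proteins lie in the promoters of several of them and are the route by which interferon can act on IRF genes. RefSeq promoter windows on GRCm38.p6, from 250 bases before to 50 bases after an annotated start, were found for 7 of the 7 members, 10 windows in all. An ISRE core (GAAA, any 2 bases, GAAA, on either strand) was present in 1 of the 10 windows, that of Irf2, and in 3.44% of all 32851 windows of the same length. A gamma-activated site, a motif bound by STAT dimers (TTC, any 3 bases, GAA, which reads alike on both strands), was present in 3 of the 10 windows, 1 each of Irf1, Irf2 and Irf8, and in 8.3% of all windows. The stretches around these matches are given 5′ to 3′ on the gene's strand, with the matched bases in capitals. The Irf1 stretch is chr11:53769904-53769953 on the plus strand, the Irf2 stretch chr8:46739495-46739550 on the plus strand and the Irf8 stretch chr8:120736167-120736234 on the plus strand.
Irf1: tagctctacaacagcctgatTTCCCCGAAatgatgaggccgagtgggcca
Irf2: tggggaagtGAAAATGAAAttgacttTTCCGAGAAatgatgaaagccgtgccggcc
Irf8: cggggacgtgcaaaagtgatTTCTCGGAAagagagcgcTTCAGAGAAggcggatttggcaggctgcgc

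In these lines the first capitals of Irf2 are the ISRE core and all the other capitals are gamma-activated sites, and Irf8 carries 2 of them close together. The windows of Irf3, Irf5, Irf7 and Irf9 held neither motif in these letters. For Irf9 and Irf7, the 2 members that the comparison of genotypes turns on, the 100 bases before the annotated start are printed for reference. They are chr14:55603885-55603984 on the plus strand for Irf9, in the first of its windows, and chr7:141266425-141266524 on the minus strand for Irf7. The RefSeq start of this Irf9 window lies 414 bases past the start of the gene in GENCODE, and the region before the GENCODE start was not searched. A looser motif of the kind bound by NF-kappa-B (GGG, any 5 bases, CC) was in 7 of the 10 windows and in 50.8% of all windows, too common to set any of them apart. A match is a description of the sequence, and binding was not measured.
Irf9: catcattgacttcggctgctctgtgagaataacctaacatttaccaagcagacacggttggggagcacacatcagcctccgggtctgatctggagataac
Irf7: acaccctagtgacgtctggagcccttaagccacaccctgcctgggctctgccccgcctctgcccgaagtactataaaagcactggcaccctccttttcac

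In BECs of both genotypes, Irf1 was by far the most abundant member and Irf8 the least. Per kilobase of exon, which allows levels of different genes to be compared, mean levels over the 10 libraries were 6.74 log2 CPM per kb for Irf1, 4.48 for Irf9, 4.46 for Irf3, 4.34 for Irf7, 3.50 for Irf2, 2.38 for Irf5 and −0.01 for Irf8. On a linear scale this is 107 CPM per kb for Irf1 against 1.0 for Irf8. Irf1 ranked first and Irf2, Irf5 and Irf8 took the last places in that order in 10 of the 10 libraries. By the length of the longest transcript in place of all exons, Irf1 stood at 7.64 and Irf8 at 1.02, first and last in 10 libraries, but Irf7 was then above Irf2 in 8 of 10. The 3 genes between Irf1 and Irf2 lay close together. Irf9 was above Irf3 in 5 of 10 libraries, with a mean gap of 0.01, and these 5 were the APP/PS1 libraries. Group means were 4.40 in Control and 4.55 in APP/PS1 for Irf9, and 4.48 and 4.45 for Irf3. Irf3 was above Irf7 in 7 of 10 libraries, with a mean gap of 0.13. The group mean of Irf7 was below that of Irf3 in Control and above it, at 4.48, in APP/PS1. The order within Irf9, Irf3 and Irf7 thus differed between the genotypes, by gaps that were not tested. It also depends on the length used, since by the longest transcript Irf3 was above Irf9 and Irf9 above Irf7 in 10 of 10 libraries. Not corrected for length, Irf1 stood at the 97.5th percentile of all genes, Irf9 at the 87.3rd and Irf8 at the 31.5th. The plot of levels per exon length shows the 2 genotypes side by side.

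**Figure D1:**
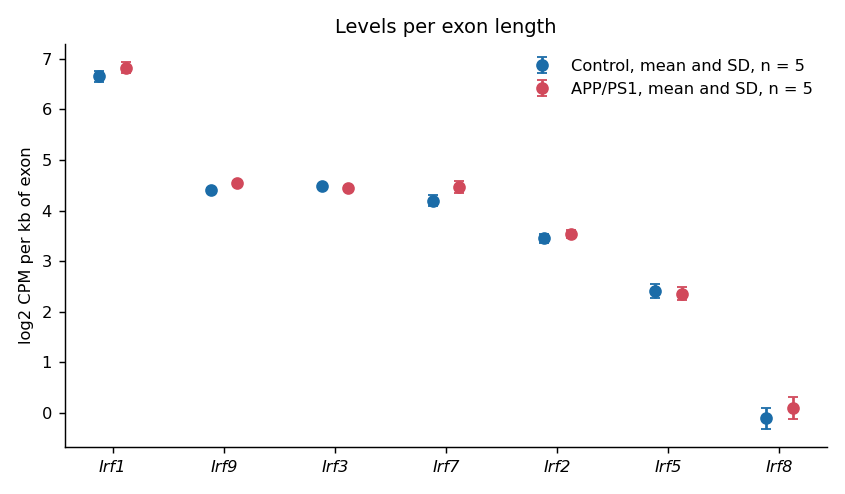
Levels of the 7 interferon regulatory factors in BECs, in log2 CPM per kb of exon, for Control and APP/PS1 libraries (points, means of 5 libraries; bars, SD). Irf1 stands at 6.74 over all libraries, Irf9, Irf3 and Irf7 between 4.34 and 4.48, and Irf8 at −0.01.

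Between genotypes, none of the 7 members passed an adjusted p under 0.05. The test was limma (lmFit and eBayes) on the log2 values of 14106 genes with genotype and the 5 replicate pairs as terms, which leaves 4 residual degrees of freedom, with Benjamini-Hochberg adjustment over the whole table. The share of all genes called was 0%, with 0 genes and no adjusted p below 0.195, while 1133 genes reached 0.05 without adjustment. Among these, Irf9 and Irf7 were higher in APP/PS1, 2 of the 7 members against 2.13% of all genes, and none was lower, against 5.91% of all genes. With library size alone as the scaling, the genes at that level split into 156 higher and 980 lower in place of 300 and 833, and Irf7 alone of the members was among them. Irf9 was the 1 member higher in APP/PS1 in all 5 pairs, against 2.99% of all genes, and the 1 member whose groups did not overlap with APP/PS1 above, against 2.91% of all genes. The second count adds little to the first, because pair means were set almost equal. The members were chosen with results of these libraries known, so these shares describe them and carry no test.

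**Figure D2:**
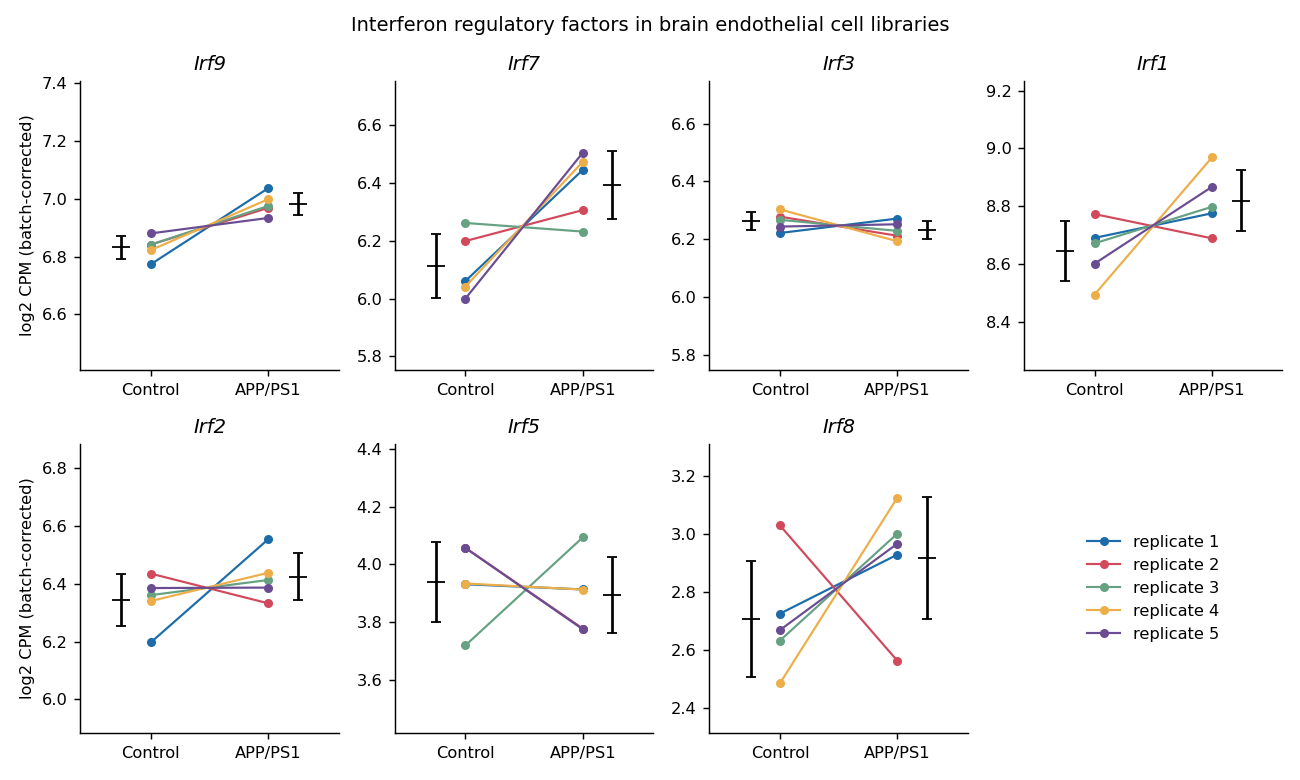
Log2 CPM of each of the 7 members in the 10 libraries, with a line joining the Control and the APP/PS1 library of the same replicate number (bars, mean and SD of 5 libraries). Every panel spans the same number of log2 units. The Irf9 lines all run upward, from 6.77 to 6.88 in Control to 6.93 to 7.04 in APP/PS1, and each of the other members has at least 1 line that runs the other way from the rest.

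Irf9, the DNA-binding subunit of ISGF3, showed a small difference that had the same direction in every pair. In Control libraries 1 to 5 it stood at 6.774, 6.842, 6.841, 6.823 and 6.880 log2 CPM, and in APP/PS1 libraries at 7.037, 6.969, 6.975, 6.998 and 6.934. The lowest APP/PS1 library lay above the highest Control library, by the margin of pair 5. The differences in pairs 1 to 5 were 0.26, 0.13, 0.13, 0.18 and 0.05, and group means were 6.83 ± 0.04 in Control and 6.98 ± 0.04 in APP/PS1 (SD, n = 5 each). The log2 difference was 0.15 (standard error 0.048, 95% confidence interval 0.03 to 0.27), or 11.0% more. By limma the p of Irf9 was 0.0212 and its adjusted p 0.569, at rank 513 of 14106 genes. An exact two-sided sign-flip test over the 5 pairs gave p = 0.0625, the smallest that 5 pairs can give. Without the replicate block the adjusted p by limma was 0.0214, from a model that does not count the degrees of freedom used to set the pair means equal. With library size alone the mean difference was 0.11 and pair 5 turned to −0.01, so that Irf9 was then higher in 4 of 5 pairs. Leaving out any one of replicates 1, 3 and 4 took the unadjusted p of Irf9 past 0.05. In bulk RNA, fewer cells of a type and less RNA per cell cannot be told apart, for Irf9 as for all members.

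Irf9 lies at chromosome 14, 55603571 to 55610030 (mm10), on the plus strand. It shares 123 exonic bases with Rnf31, a ubiquitin ligase gene on the same strand. Rnf31 had a log2 difference of 0.11 (adjusted p = 0.747 by limma). Reads in the shared bases cannot be assigned to one of the 2 genes. Whether such reads were counted or left out is not stated in the sources used here, and their part in the Irf9 values was not tested. The lowest Irf9 library held 2543 adjusted counts.

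Irf7, which amplifies type I interferon production and is itself induced by interferon, had the largest mean difference of the 7 members but varied more. Control libraries 1 to 5 stood at 6.060, 6.199, 6.261, 6.042 and 5.9998 log2 CPM, and APP/PS1 libraries at 6.445, 6.306, 6.232, 6.473 and 6.505. Replicates 1, 4 and 5 were clearly apart, while in replicate 3 the Control library was marginally higher and overlapped the APP/PS1 group. The pair differences were 0.38, 0.11, −0.03, 0.43 and 0.50, with group means of 6.11 ± 0.11 in Control and 6.39 ± 0.12 in APP/PS1 (SD, n = 5 each). The log2 difference of Irf7 was 0.28 (standard error 0.0936, 95% confidence interval 0.05 to 0.51), or 21.4% more. By limma this gave p = 0.0254 and an adjusted p of 0.571, and the exact sign-flip p was 0.125. The unadjusted p of Irf7 moved past 0.05 when any one of replicates 1, 4 and 5 was left out. Irf7 lies at chromosome 7, 141262706 to 141266481, on the minus strand, and 45 of its exonic bases are shared with Phrf1 on the opposite strand, whose log2 difference was 0.03. Whether the libraries kept strand is not stated in the sources used here.

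Irf3, the constitutive partner of Irf7 in inducing interferon, was nearly level. The Control libraries lay between 6.22 and 6.30 log2 CPM and the APP/PS1 libraries between 6.19 and 6.27, and it was higher in 2 of 5 pairs. Its log2 difference was −0.03 (standard error 0.0452, 95% confidence interval −0.14 to 0.08, adjusted p = 0.902 by limma). This interval, the narrowest of the 7, covers ratios of APP/PS1 to Control from 0.906 to 1.06. The gene lies at chromosome 7, 44997648 to 45002848, and shares 88 exonic bases with Bcl2l12 on the opposite strand.

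**Figure D3:**
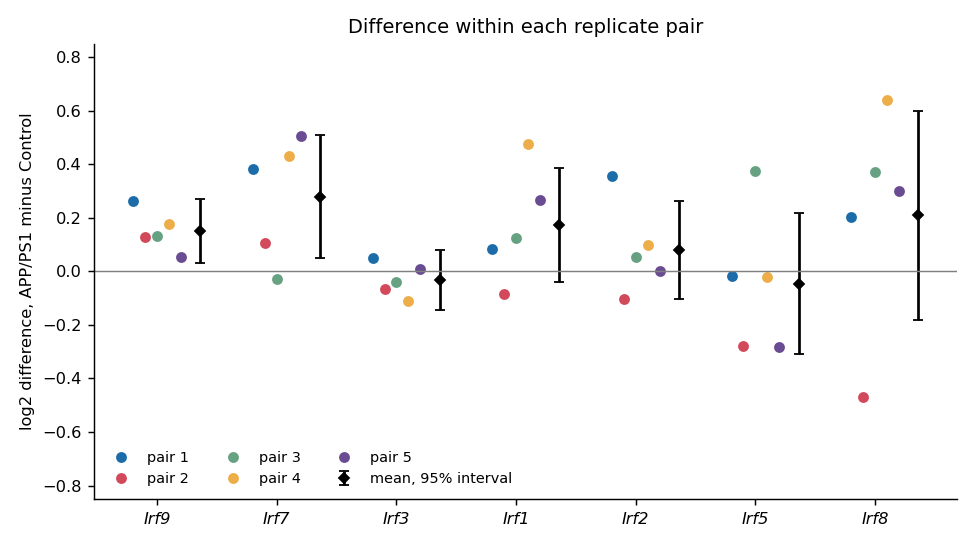
Log2 difference between the APP/PS1 and the Control library of each replicate pair (coloured points) for the 7 members, with the mean and its 95% interval from limma (diamonds and bars). The intervals of Irf9 (0.03 to 0.27) and Irf7 (0.05 to 0.51) lie above 0 and those of the other 5 span it.

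Irf1 was high everywhere and its difference came mainly from replicates 4 and 5, which share a batch by the labels. Control libraries 1 to 5 stood at 8.69, 8.77, 8.67, 8.49 and 8.60 log2 CPM and APP/PS1 libraries at 8.78, 8.69, 8.80, 8.97 and 8.87. In replicate 2 the Control library was the higher one, and the groups overlapped. The pair differences of Irf1 were 0.09, −0.08, 0.13, 0.47 and 0.27, and the log2 difference was 0.17 (standard error 0.0869, 95% confidence interval −0.04 to 0.39, adjusted p = 0.726 by limma). Leaving out replicate 4 gave 0.10 and leaving out replicate 2 gave 0.24. Group means were 8.65 ± 0.10 and 8.82 ± 0.10 (SD, n = 5 each). Irf1 lies at chromosome 11, 53770014 to 53778374, and shares 135 exonic bases with Gm17334 on the opposite strand.

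Irf2, the competitor of Irf1, had values between 6.20 and 6.43 log2 CPM in Control and between 6.33 and 6.55 in APP/PS1. It was higher in 4 of 5 pairs, but by 0.36 in replicate 1 and by 0.10 or less in the other pairs. The log2 difference of 0.08 (standard error 0.0745, 95% confidence interval −0.10 to 0.26, adjusted p = 0.849 by limma) was 0.01 without replicate 1. Under library size alone Irf2 was higher in 1 of 5 pairs, although its mean difference stayed above 0, at 0.04. Irf2 lies at chromosome 8, 46739732 to 46847458, with no exonic base shared with another gene.

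Irf5 and Irf8, the members best known from myeloid cells, were the 2 lowest per length, and their intervals were the widest. Irf8 stood at 2.73, 3.03, 2.63, 2.48 and 2.67 log2 CPM in Control libraries 1 to 5 and at 2.93, 2.56, 3.00, 3.13 and 2.97 in APP/PS1 libraries. Replicate 2 ran against the other 4, and it holds both the highest Control and the lowest APP/PS1 library. The pair differences of Irf8 were 0.20, −0.47, 0.37, 0.64 and 0.30, giving a log2 difference of 0.21 (standard error 0.158, 95% confidence interval −0.18 to 0.60, adjusted p = 0.831 by limma). Without replicate 2 it was 0.38 and without replicate 4 it was 0.10. Irf8 lies at chromosome 8, 120736358 to 120756694, and its lowest library held 153 adjusted counts.
Irf5, which acts downstream of Toll-like receptors, ranged from 3.72 to 4.06 log2 CPM in Control and from 3.78 to 4.09 in APP/PS1. It was higher in 1 pair, replicate 3, by 0.37, and lower in the other 4, by 0.02 to 0.28. The log2 difference of Irf5 was −0.05 (standard error 0.107, 95% confidence interval −0.31 to 0.22, adjusted p = 0.946 by limma), and its sign changed without replicate 2 or without replicate 5, to 0.01 in both. Irf5 lies at chromosome 6, 29526625 to 29541871, and shares 411 exonic bases with Tnpo3 on the opposite strand, the most of any member.

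Markers of microglia and macrophages were low in these libraries. Of 18 listed genes, 13 were in the table, and Aif1, Itgam, Tyrobp, Fcer1g and Mrc1 were not among the genes analysed here. The microglial receptors Cx3cr1, P2ry12 and Tmem119 had means of 0.53, −0.37 and −0.57 log2 CPM, below Irf8 at 2.81 and Irf5 at 3.92 on the same scale, which is not corrected for length. The summed CPM of the 13 genes ranged, as log2, from 6.42 to 6.70 in Control and from 6.48 to 6.75 in APP/PS1. It differed by 0.34, −0.01, −0.10, 0.29 and −0.22 in pairs 1 to 5, higher in 2 of 5, and 0 of 13 genes had an unadjusted p under 0.05 in limma. The differences of Irf8 and of this sum had the same sign in pairs 1, 2 and 4 and opposite signs in pairs 3 and 5. The part of microglia and macrophages in the values of Irf5 and Irf8 was not tested.
Genes that respond to tissue dissociation are set beside Irf1 here, and the closeness of the 2 was not measured. The median difference over 12 such genes, among them Fos, Junb and Egr1, was −0.03, −0.02, 0.06, 0.48 and 0.23 in pairs 1 to 5, beside 0.09, −0.08, 0.13, 0.47 and 0.27 for Irf1. The signs differed in pair 1, and the genes differed among themselves, in pair 2 from −0.86 for Hspa1a to 0.11 for Junb. All 12 had a mean difference above 0, as 48.2% of all genes did, with a median of 0.10. Of the 12, Junb alone had an unadjusted p under 0.05 in limma, and 2.13% of all genes were higher at that level. The part of dissociation in the values of Irf1 and Irf8 was not tested.

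**Figure D4:**
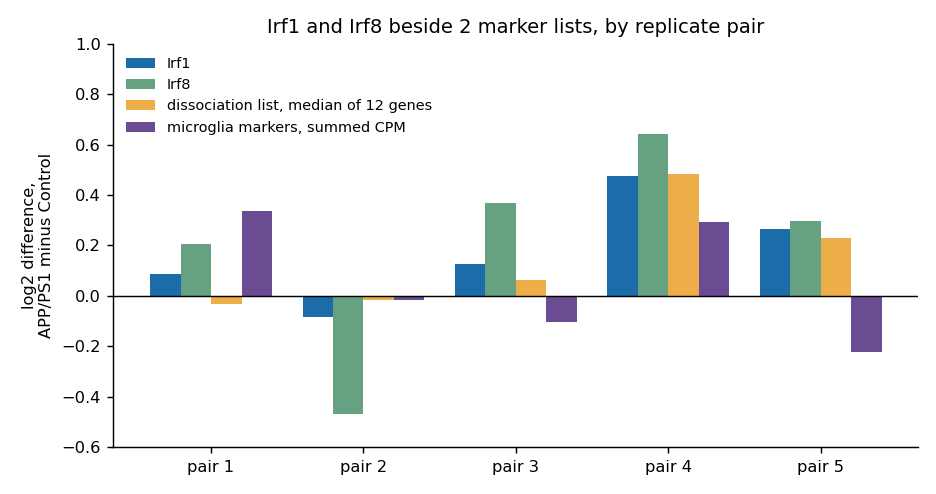
Log2 difference between APP/PS1 and Control in each replicate pair for Irf1, Irf8, the median of 12 genes of the dissociation response and the summed CPM of 13 microglia and macrophage markers (bars from 0). Pair 4 has the highest bars for Irf1 (0.47), Irf8 (0.64) and the dissociation genes (0.48), while the microglial sum is highest in pair 1 (0.34).

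The members did not move as a block from pair to pair. The number of members higher in APP/PS1 was 6, 2, 5, 5 and 6 of 7 in pairs 1 to 5, and the median of the 7 differences was 0.20, −0.08, 0.13, 0.18 and 0.05. Replicate 2 had the fewest, with Irf9 and Irf7 the only members higher there. Without replicate 2, 4 members (Irf1, Irf2, Irf8 and Irf9) in place of 1 were higher in every remaining pair, where the share of all genes was 11.8% in place of 2.99%. At an unadjusted p under 0.05, 4 members (Irf1, Irf7, Irf8 and Irf9) in place of 2 were then higher, and the share of all genes was 5.86% in place of 2.13%. None passed an adjusted p under 0.05 there, and the lowest among the 7 was 0.241, for Irf8.
Likeness between genes was measured as the root mean square distance between their 5 pair differences, over 10872 genes with a mean of at least 2 log2 CPM. Among the 7, the closest member to Irf9 was Irf2, at 0.12 log2 units, and Irf1 and Irf7 were each other's closest, at 0.20. Genes outside the family came closer. For Irf9 they were Dgkd, Fancc and Hnrnpm (0.04 to 0.05), and for Irf7 they were Gm19028, Utp14b and Susd6 (0.12 to 0.13). Irf1 was most like Hspa5, Atf4 and Gm4617 (0.03 to 0.05), with Hspa5 and Atf4 known as genes of the unfolded protein and integrated stress responses. Irf8 was most like Adamts1, Zfp703 and Fzd5 (0.02 to 0.06). For Irf2 they were Syne2, Man1a and Zic5 (0.03 to 0.04), for Irf3 Sp3, Camta2 and Tmx1 (0.02), and for Irf5 Ywhaq, Eva1b and Mrpl27 (0.04 to 0.09). With 5 differences a gene and 10872 genes searched, such neighbours are a description.

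Upstream of the factors stand the adaptors and kinases that activate IRF3, IRF5 and IRF7. Of 18 listed genes 16 were in the table (Ikbke and Ticam2 were not analysed here), including the kinase gene Tbk1, the adaptors Mavs, Myd88 and Ticam1, and Tmem173, which encodes STING. None had an unadjusted p under 0.05, where 2.13% of all genes were higher and 5.91% lower at that level, so that a list of this size may hold none. The median log2 difference was 0.01 and the range ran from −0.09 to 0.14, beside a median of −0.00377 over all 14106 genes. Of 9 genes of the interferons, their receptors and the receptor kinases 7 were in the table, again too few to read a count from. None had an unadjusted p under 0.05, and their median was 0.05. Ifnar1 and Ifnar2, the 2 chains of the type I receptor, had log2 differences of 0.05 and 0.09, the first higher in 2 of 5 pairs and the second in 4 of 5 (adjusted p = 0.898 and 0.795 by limma). Pair 1 carried both, since without replicate 1 they were −0.02 and 0.04. Ifnb1 and Ifng, the genes of interferon beta and gamma, were not among the genes analysed here.

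Among 10 of 12 listed partners of the IRFs in the table, Stat2 alone had an unadjusted p under 0.05, and such a count is near the share over all genes (2.13% higher and 5.91% lower). Stat2, the ISGF3 subunit that binds Irf9, stood at 6.92, 7.01, 7.03, 6.97 and 6.96 log2 CPM in Control libraries 1 to 5 and at 7.18, 7.09, 7.08, 7.15 and 7.15 in APP/PS1 libraries, with no overlap. Its log2 difference was 0.15 (standard error 0.0495, 95% confidence interval 0.03 to 0.28), close to that of Irf9, and its p was 0.0225 and adjusted p 0.569 by limma. Leaving out any one of replicates 1, 4 and 5 took this p past 0.05. The partner genes had a median of 0.06 and all 10 had a mean difference above 0, as 48.2% of all genes did. Of 12 genes whose products bind or restrain IRFs or their signalling, 1 had an unadjusted p under 0.05, again near the share over all genes. This was Usp18, an interferon-induced protein that dampens the receptor's signal, which was higher in 5 of 5 pairs by 0.16 (adjusted p = 0.569 by limma) and past an unadjusted p of 0.05 without replicate 1, 3 or 4.

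Downstream, 3 lists of target genes were counted. The IRF1-linked genes of antigen processing, among them Tap1, Psmb8, Psmb9, B2m and Nlrc5, had no gene of 15 with an unadjusted p under 0.05. Of all genes 2.13% were higher and 5.91% lower at that level, so a list of this size may hold none. In APP/PS1 10 of the 15 were lower, as were 7308 of all 14106 genes, and the median of the list was −0.02. Of 19 ISGF3-linked targets in the table (of 20), 12 had an unadjusted p under 0.05, all higher in APP/PS1, against 2.13% of all genes, and 10 were higher in all 5 pairs, against 2.99%. Their median log2 difference was 0.16. Irf7 and Irf9 are themselves in this list, and without them 10 of 17 genes had an unadjusted p under 0.05 and 9 were higher in all 5 pairs, with a median of 0.16. None of the 19 passed an adjusted p under 0.05. Of 6 of 8 early targets of IRF3 and IRF7 in the table, 5 had an unadjusted p under 0.05 and were higher in all 5 pairs, with a median of 0.34. Of these 6 early targets 4 are also in the ISGF3 list, so the 2 lists are not separate groups, and no difference between lists was tested.
The targets with the smallest p belonged to both lists. Ifit1, which binds foreign RNA, was higher by 0.34 with pair differences between 0.32 and 0.36 (adjusted p = 0.238 by limma). Ifit3, its partner, was higher by 0.31 (adjusted p = 0.399), the ubiquitin-like protein gene Isg15 by 0.34 (adjusted p = 0.451) and the antiviral enzyme gene Rsad2 by 0.42 (adjusted p = 0.537), each in 5 of 5 pairs. The log2 differences of these 4 genes were thus larger than the 0.15 of Irf9 and of Stat2. The difference between targets and factors was not tested. The study itself drew attention to interferon genes from these libraries, so the lists of interferon targets are not independent evidence of their direction. Under library size alone the ISGF3-linked count was 6 in place of 12, and it was 5 when replicate 1 or replicate 4 was left out and 6 when replicate 5 was, whereas the count of early targets stayed at 5 or 6 under all alternatives tried.

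**Figure D5:**
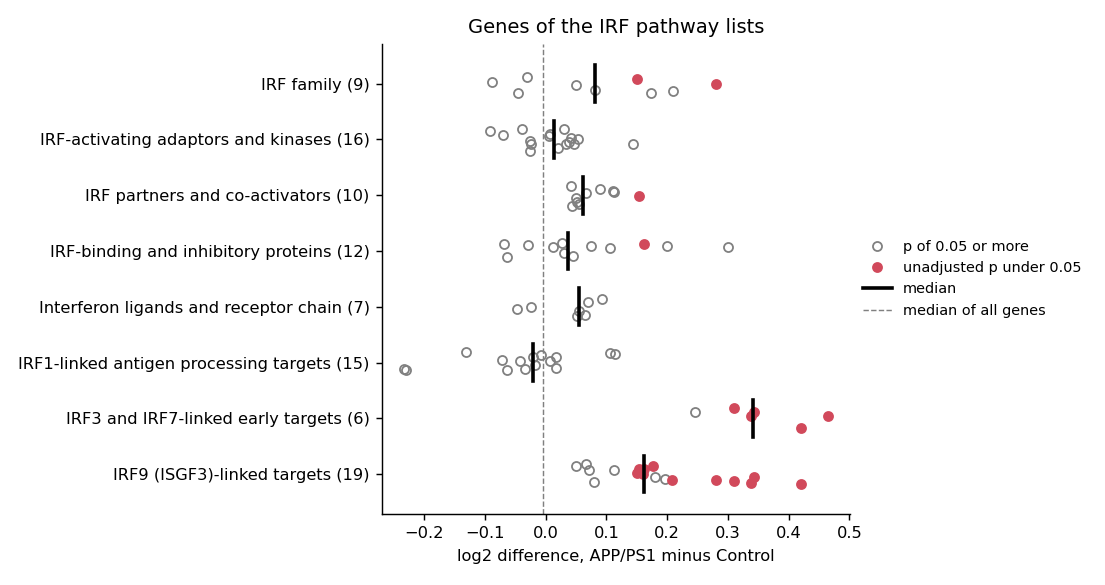
Log2 difference between APP/PS1 and Control for the genes of 8 lists of the IRF pathway (points, one a gene; filled where the unadjusted limma p is under 0.05; thick bar, median of the list; dashed line, median of all genes). The medians are 0.34 for the early targets of IRF3 and IRF7, 0.16 for the ISGF3-linked targets and −0.02 for the IRF1-linked antigen processing genes.

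Irf4, a gene of the family known from lymphocytes, was near the floor of these libraries, at −0.07 ± 0.64 log2 CPM in the Control group and −0.16 ± 0.81 in the APP/PS1 group (SD, n = 5 each), with as few as 15 adjusted counts. Its pair differences ran from −2.44 to 1.11, so no direction can be given for it.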

How the data were processed

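By the study's methods, the authors used STAR for alignment to mm10 and HTSeq-count for counting, filtered low counts and took log CPM with edgeR and corrected for batch with ComBat. Versions and strandedness are not given in the sources used here. The deposited log2 CPM were used as they stand. They convert back, for 100% of values within 0.05, to whole adjusted counts with a prior count of 3, which a correction of log CPM would not leave in general. Pairs of replicate numbers came from the study's plot of 5 batches, while the labels give 4, with replicates 4 and 5 in the same batch. The mean of a pair had an SD over pairs of 0.00353 in the median gene, so its libraries deviate in mirror image and the pairs were kept as a replicate block.

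The fit used R 4.3.3 and limma 3.58.1 and was tested on simulated data. Lengths, positions and overlaps came from GENCODE M21, and promoters from RefSeq. Named genes were the IRF family, up to 4 genes with the smallest unadjusted p under 0.05 from each pathway list, Stat2, Ifnar1, Ifnar2, and the 3 genes nearest to each member. Some of the genes this rule names are not reported here. Members and lists, written from general knowledge, were chosen with earlier results of these data known. Alternatives were the model without the block, 4 batches, a trend in eBayes, 2 other scalings, a prior count of 0.5, limma-voom, a mean of at least 1 log2 CPM, a threshold of 0.10 and each replicate left out. The alternatives for the target lists were chosen after seeing the data.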

Additional observations from a re-analysis of the deposited data

Results flagged for a closer look

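Irf4 in APP/PS1 replicate 5 stood at −1.54 log2 CPM, far below the other 4 APP/PS1 libraries, which lay between −0.04 and 0.43, and its gap to the nearest took a share of 0.765 of the group's range. Groups of 5 libraries were searched for such a lone value in 18 cases, of which chance would mark 0.9 at 1 in 20, and this was the 1 found. The gene is weakly expressed, with as few as 15 adjusted counts in a library, and nothing in the results on the 7 members rests on it.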

How the results depend on the processing

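Over 91 results of the 7 members under the alternatives, 88 kept direction and side of the threshold. This count was partly fixed in advance. Without the block, with 4 batches, with a trend or with the level filter, each member's estimate equals that of the main fit, so its direction could not change. The members also began far from the threshold, with adjusted p by limma from 0.569 for Irf9 to 0.946 for Irf5. Without the replicate block, limma called 648 genes in place of 0 and the adjusted p was 0.0214 for Irf9 and 0.0525 for Irf7, because 8 residual degrees of freedom then stood against values whose pair means had been set equal, and the IRF1-linked list had 1 gene in place of 0. With 4 batches the number of genes called was 1, under the other settings with all libraries 0, and with a replicate left out between 0 and 5. Irf5 reversed without replicate 2 (0.0134) and without replicate 5 (0.0139), over a range from −0.15 to 0.0139. Members higher in all pairs numbered 0 under library size alone, which moved the median of all genes by −0.04, and 1 to 4 with a replicate left out (4 without replicate 2, 2 without replicate 3). The cause was not tested. ISGF3-linked genes at an unadjusted p under 0.05 numbered 6 under library size alone in place of 12, and 5 to 11 with a replicate left out. By length of the longest transcript, levels were 7.64 log2 CPM per kb for Irf1, 5.22 for Irf3, 4.96 for Irf9, 4.56 for Irf7, 4.40 for Irf2, 2.75 for Irf5 and 1.02 for Irf8, so Irf3 passed Irf9. With 5 pairs no single gene can reach an exact p below 0.0625, and replicate 1, with the fewest adjusted counts, is the least deeply measured.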
